A study of Mus musculus with 12 samples.

Results

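The genes described here are those of fatty acid oxidation, ketone body metabolism and the targets of PPARA in the mouse liver. They were chosen as a list of 41 names, and 39 of them were measured by a probe set that the array annotation assigns to that gene alone, of 22180 genes measured in this way. Acsl1 was not analysed here, and Acot8 was found on a probe set shared with Snx21 and was kept apart from the others. Liver RNA was hybridised to Affymetrix arrays, with 3 arrays in each of 4 groups. All mice were males aged 2 months, labelled C57Bl/6N, and all carried floxed p53 alleles (Trp53tm1Brn/J). Each received, through the tail vein, an equal titre of an adenovirus that expresses either the recombinase Cre (Adeno-Cre), by which infected cells lose the floxed stretch of p53, or green fluorescent protein (Adeno-GFP). Diet was set 3 days later, when mice were fasted for 24 h or left to eat freely. The groups were therefore Adeno-Cre fasted, Adeno-Cre fed, Adeno-GFP fasted and Adeno-GFP fed, and every mouse, controls included, was infected with a virus. The labels do not give the promoter of the viral transgenes or the share of liver cells infected. The level of p53 itself was not analysed here, so its loss was not checked. No label ties an array to separate mice, so a p-value reflects only how far these arrays differ, and their number limits the precision.

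In a fasted animal, fatty acids released by adipose tissue enter hepatocytes, are activated to acyl-CoA and pass into mitochondria as acylcarnitines, where beta-oxidation shortens them to acetyl-CoA. Peroxisomes shorten very long and branched chains, and much of the acetyl-CoA of a fasted liver leaves as ketone bodies. PPARA, a nuclear receptor that binds fatty acids and pairs with RXR, switches on many genes of these routes in the liver and is known as a main regulator of the hepatic response to fasting.

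Values are log2 expression levels, in which a difference of 1 is a doubling, and levels are compared between arrays of the same probe set only. Changes are fasted minus fed, or Adeno-Cre minus Adeno-GFP, from a limma fit over all 12 arrays, and a gene passed the test where its p, adjusted by Benjamini and Hochberg over 22180 genes, was under 0.05. A number alone in parentheses after a change is this adjusted p, and a pair in parentheses after a gene is its log2 change and the adjusted p. Array medians lay between 6.26 and 6.33. Over all genes, the correlation between arrays within a group was 0.991 to 0.994. The labelled tissue was checked on hepatocyte markers. The 10 measured of 11 listed averaged between 9.90 and 13.47 over all arrays, and their summed level, on the log2 scale, ran from 16.08 to 16.19 over the 4 groups. The 4 measured adipocyte markers averaged 5.45 to 6.47, all under the median of all genes.

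Within the fasted groups, single arrays stood apart on these genes. Adeno-Cre fasted replicate 2 was the highest of its group for 32 of 39 genes and replicate 3 the lowest for 31. Adeno-GFP fasted replicate 2 was the highest of its group for 30 genes and replicate 3 the lowest for 22. The median deviation of the 39 genes from their group means was 0.12 and -0.12 in those Adeno-Cre arrays, and 0.07 and -0.06 in those Adeno-GFP arrays, while that of all genes stayed between -0.02 and 0.02 on every array. Counts that rest on the fasted arrays are therefore given with and without both replicates numbered 2, a choice made after these values were seen.

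Fasting raised most genes of the group and lowered none past the threshold. Averaged over both injections, 26 of 39 genes rose with fasting and 0 fell, where 8.34% of all genes passed (4.02% higher, 4.32% lower). The median change of the 39 genes was 0.35, against 0.01 for all genes. Rises reached 1.17 for Pdk4, a kinase that shuts off pyruvate dehydrogenase, and for Ehhadh, the bifunctional enzyme of peroxisomal beta-oxidation. After Adeno-Cre, 15 genes rose and 0 fell, where 2.67% of all genes passed (1.5% higher, 1.17% lower), and the median change was 0.34. After Adeno-GFP, 18 rose and 0 fell, where 3.07% of all genes passed (1.2% higher, 1.87% lower), and the median change was again 0.34. On 23 of 39 genes all 6 fasted arrays lay above all 6 fed arrays, which held for 2.21% of all genes. Liver tissue holds several cell types, and in these samples more cells of a type cannot be told apart from more RNA per cell.

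The averaged count varied less with the arrays used than the counts within each injection. Leaving out both fasted replicates 2 gave 22 genes averaged, 3 after Adeno-Cre and 8 after Adeno-GFP. Leaving out single arrays gave 22 to 27 genes averaged. After Adeno-Cre, 3 genes passed without fasted replicate 1 or 2, 4 without fed replicate 1 or 3, 5 without fed replicate 2 and 17 without fasted replicate 3. After Adeno-GFP, 11 passed without fasted replicate 1 or fed replicate 3, 10 without fed replicate 1, 8 without fasted replicate 2 or fed replicate 2, and 13 without fasted replicate 3. The genes called without each array in turn were Slc25a20, Ehhadh and Acot2 after Adeno-Cre. After Adeno-GFP they were Cpt1a, Crat, Acadm, Hadhb, Ehhadh, Acot1 and Acot2.

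**Figure D1:**
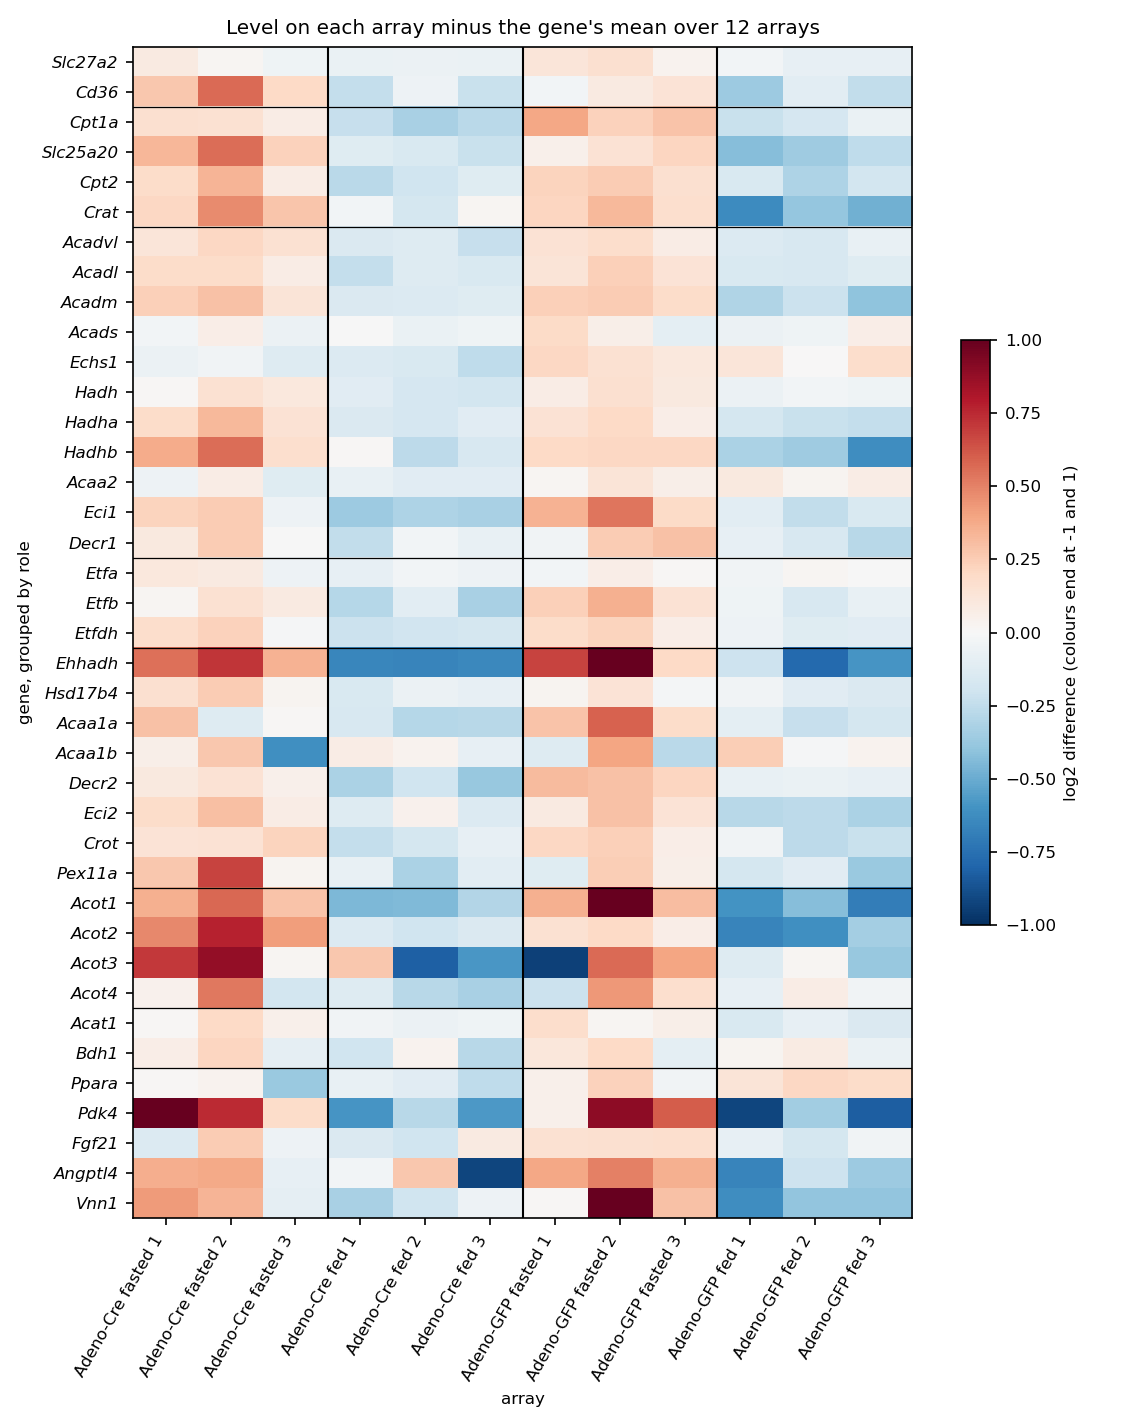
Level of each of the 39 genes on each array, as the log2 difference from the gene's mean over 12 arrays (colours end at -1 and 1, red is higher). Columns are arrays by group and rows are genes by role. The 6 fasted arrays are redder than the 6 fed arrays for most genes, and replicate 2 of each fasted group is the reddest of its group for most rows.

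Genes of the other cell types in liver also moved with diet. Of 12 stellate cell markers, 3 fell with fasting averaged over injections, with Lrat at -0.64 (limma adjusted p = 0.000589), Col1a2 at -0.58 (0.00128) and Col3a1 at -0.56 (0.00139), and the summed level of the list was 12.45 to 12.71 in Adeno-Cre fasted livers, against 12.48 to 12.71 in Adeno-Cre fed livers. In Adeno-GFP livers it was 12.76 to 12.88 in the fasted group, against 12.81 to 12.85 in the fed group. Of 12 macrophage markers, Lyz2 fell by 0.43, and the list's median change was -0.39 after Adeno-Cre and -0.05 after Adeno-GFP. Its summed level was 11.41 to 11.99 in Adeno-Cre fasted livers and 11.81 to 12.37 in Adeno-Cre fed livers. It was 12.00 to 12.55 in Adeno-GFP fasted livers and 12.25 to 12.33 in Adeno-GFP fed livers. Of 12 endothelial markers, Fcgr2b fell by 0.37, with a list median of -0.08 averaged over injections. Of 13 lymphocyte and neutrophil markers, Ptprc and Gzma fell, with a list median of -0.05, and 11 of the list averaged under the median of all genes. Of 10 hepatocyte markers, Hnf4a rose by 0.42 and Cps1 by 0.17, while the list's median change was -0.007. No marker of bile duct cells or adipocytes passed. The part of these cell types in the results below was not tested.

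The 6 largest averaged rises were those of Pdk4, Ehhadh, Acot1, Acot2, Vnn1 and Angptl4, which act at different points of fat use. Pdk4, which spares glucose by blocking pyruvate dehydrogenase, had log2 levels of 9.17, 8.88 and 8.31 in Adeno-Cre fasted livers, against 7.54, 7.85 and 7.55 in Adeno-Cre fed livers. After Adeno-GFP, Pdk4 stood at 8.18, 9.02 and 8.73 in Adeno-GFP fasted livers, against 7.21, 7.78 and 7.30 in Adeno-GFP fed livers. All 6 fasted arrays lay above all 6 fed arrays, and the lowest fasted arrays were replicate 3 after Adeno-Cre and replicate 1 after Adeno-GFP. The averaged change was 1.17 ± 0.17 (SE, 6 arrays against 6), a 2.26-fold rise (limma adjusted p = 0.00139).

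Ehhadh, which carries out the hydratase and dehydrogenase steps in peroxisomes, was at 12.03, 12.18 and 11.82 in Adeno-Cre fasted livers, against 10.82, 10.81 and 10.83 in Adeno-Cre fed livers. After Adeno-GFP, Ehhadh was at 12.15, 12.49 and 11.67 in Adeno-GFP fasted livers, against 11.27, 10.70 and 10.88 in Adeno-GFP fed livers. The Adeno-Cre fed arrays were almost identical, the Adeno-GFP arrays were spread, and the fasted and fed groups did not overlap. The averaged change was 1.17 ± 0.13 (limma adjusted p = 0.00031), with 1.19 after Adeno-Cre and 1.16 after Adeno-GFP.

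Acot1 encodes a cytosolic thioesterase that splits acyl-CoA to free fatty acid and coenzyme A. Its levels were 10.59, 10.80 and 10.51 in Adeno-Cre fasted livers, against 9.78, 9.79 and 9.94 in Adeno-Cre fed livers. After Adeno-GFP, Acot1 had 10.59, 11.24 and 10.54 in Adeno-GFP fasted livers, against 9.63, 9.81 and 9.54 in Adeno-GFP fed livers. Fasted arrays were all above fed arrays, with Adeno-GFP fasted replicate 2 far above the others of its group. The averaged change of Acot1 was 0.96 ± 0.11 (limma adjusted p = 0.000418).

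Promoter sequence is shown for these 3 genes as the largest risers with an entry in the RefSeq promoter table (build GRCm38.p6), and for Cpt1a and Slc27a2, genes of fatty acid entry into the cell and the mitochondrion whose windows hold the AGGTCA core that nuclear receptors bind. Each line is the 250 bases before the gene's start, 5′ to 3′ in the direction of the gene. Capitals mark that core, found here as its reverse complement TGACCT in both genes. The windows are chr16:21787835-21788084 on the minus strand for Ehhadh, chr6:5496279-5496528 on the minus strand for Pdk4, chr12:84009252-84009501 on the plus strand for Acot1, chr19:3323051-3323300 on the plus strand for Cpt1a and chr2:126552774-126553023 on the plus strand for Slc27a2.
Ehhadh: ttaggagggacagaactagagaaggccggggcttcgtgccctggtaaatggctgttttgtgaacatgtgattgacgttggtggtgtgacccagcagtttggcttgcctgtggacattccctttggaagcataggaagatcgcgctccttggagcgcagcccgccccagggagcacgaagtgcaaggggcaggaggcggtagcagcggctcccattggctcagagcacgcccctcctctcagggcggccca
Pdk4: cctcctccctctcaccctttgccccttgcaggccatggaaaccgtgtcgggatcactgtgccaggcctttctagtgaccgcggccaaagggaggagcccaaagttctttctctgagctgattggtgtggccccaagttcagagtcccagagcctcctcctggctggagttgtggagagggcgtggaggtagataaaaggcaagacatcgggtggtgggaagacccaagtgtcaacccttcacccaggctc
Acot1: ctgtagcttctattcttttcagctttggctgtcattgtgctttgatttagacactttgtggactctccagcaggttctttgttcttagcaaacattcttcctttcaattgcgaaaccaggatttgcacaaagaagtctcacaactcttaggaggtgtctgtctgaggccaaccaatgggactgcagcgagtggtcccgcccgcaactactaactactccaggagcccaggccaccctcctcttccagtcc
Cpt1a: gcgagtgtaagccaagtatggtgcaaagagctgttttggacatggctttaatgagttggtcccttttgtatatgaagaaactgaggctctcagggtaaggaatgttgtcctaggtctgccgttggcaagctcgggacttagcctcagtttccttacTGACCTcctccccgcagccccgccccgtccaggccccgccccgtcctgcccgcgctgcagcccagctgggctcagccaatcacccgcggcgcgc
Slc27a2: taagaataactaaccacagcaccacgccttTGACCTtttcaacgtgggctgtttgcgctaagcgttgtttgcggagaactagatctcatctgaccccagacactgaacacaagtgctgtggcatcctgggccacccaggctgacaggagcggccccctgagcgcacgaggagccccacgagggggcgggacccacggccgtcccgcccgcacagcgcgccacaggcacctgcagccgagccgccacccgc

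PPARA with RXR is known to bind a direct repeat of AGGTCA with a single-base spacer. On either strand of these windows, AGGTCA was found in 7 of the 34 listed genes with an entry (20.6%), against 15.8% of 27025 genes in the table. It was found in 4 of 22 genes that rose with fasting (18.2%) and in 3 of 10 that did not pass (30%). The other 2 of the 34 are the genes without a level of their own. The exact repeat was in 0 of 34 listed genes and in 0.0407% of all genes. A stretch within 2 mismatches of the repeat, which may overlap an exact AGGTCA, was in Acot4, Cd36, Echs1 and Etfa, or 11.8% of the 34, against 3.72% of all genes, and of these 4 only Cd36 rose. The letters of a window are a description and do not show binding.

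Uptake and activation was represented by a pair of genes. Cd36, a surface receptor for long-chain fatty acids, was at 11.50, 11.80 and 11.43 in Adeno-Cre fasted livers, against 10.99, 11.18 and 11.003 in Adeno-Cre fed livers. After Adeno-GFP, Cd36 was at 11.20, 11.32 and 11.36 in Adeno-GFP fasted livers, against 10.87, 11.12 and 10.98 in Adeno-GFP fed livers. Fasted arrays lay above fed arrays for both injections, with a narrow gap after Adeno-GFP. The averaged change was 0.41 ± 0.08 (limma adjusted p = 0.00604), and the change passed after Adeno-Cre (0.52, 0.0265) but not after Adeno-GFP (0.30, 0.17), where the difference between the changes was 0.21 (0.779). Slc27a2, a very long-chain acyl-CoA synthetase that also acts in fatty acid uptake, had a change of 0.13 on its brighter probe set and did not pass (0.136). The levels of that probe set, 12.94 to 13.18 on the 12 arrays, are close to the top of the array's range of 13.96. The second probe set of Slc27a2 gave 0.38 and passed (0.0219). On the brighter one the change also passed without dim genes (0.045) and with a trended and robust prior (0.0125), as did the mean of both probe sets, at 0.26 (0.0143).

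All 4 genes of the carnitine shuttle rose when averaged over injections, with a median change of 0.47. Cpt1a makes acylcarnitine at the outer mitochondrial membrane and is the step that sets the rate of mitochondrial oxidation. Its levels were 11.37, 11.37 and 11.28 in Adeno-Cre fasted livers, against 10.98, 10.89 and 10.94 in Adeno-Cre fed livers. After Adeno-GFP, Cpt1a was at 11.60, 11.45 and 11.50 in Adeno-GFP fasted livers, against 10.99, 11.04 and 11.14 in Adeno-GFP fed livers. Arrays of a group lay close together and the diets did not overlap. The change was 0.41 ± 0.07 after Adeno-Cre (limma adjusted p = 0.0144) and 0.46 ± 0.07 after Adeno-GFP (0.0068).

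Slc25a20, the exchanger that carries acylcarnitine across the inner membrane, was at 10.82, 11.04 and 10.71 in Adeno-Cre fasted livers, against 10.37, 10.34 and 10.27 in Adeno-Cre fed livers. After Adeno-GFP, Slc25a20 was at 10.54, 10.63 and 10.70 in Adeno-GFP fasted livers, against 10.06, 10.13 and 10.23 in Adeno-GFP fed livers. Every fasted array was above every fed array, and the change was 0.54 after Adeno-Cre (0.0111) and 0.48 after Adeno-GFP (0.016). Cpt2, which returns acylcarnitine to acyl-CoA inside the mitochondrion, rose by 0.41 averaged over injections (limma adjusted p = 0.00139).

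Crat, which transfers acetyl groups to carnitine in mitochondria and peroxisomes, is read by a pair of probe sets. On the brighter one it was at 8.32, 8.59 and 8.39 in Adeno-Cre fasted livers, against 8.09, 7.94 and 8.14 in Adeno-Cre fed livers. After Adeno-GFP, Crat was at 8.33, 8.44 and 8.29 in Adeno-GFP fasted livers, against 7.49, 7.73 and 7.64 in Adeno-GFP fed livers. The fasted arrays of both injections overlapped, while all Adeno-Cre fed arrays lay above all Adeno-GFP fed arrays. The fasting change of Crat was 0.38 after Adeno-Cre, which did not pass (0.0612), and 0.73 after Adeno-GFP (0.00205), with a difference between them of -0.36 that did not pass (0.62). On the second probe set the fasting change was 0.50 after Adeno-Cre (0.0972) and 0.55 after Adeno-GFP (0.0713), neither past the threshold, and the difference between them was -0.04 (0.977). Within each diet, all Adeno-Cre arrays lay below the Adeno-GFP arrays for Cpt1a and above them for Slc25a20, although neither gene passed between the injections.

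Most genes of beta-oxidation in the mitochondrial matrix rose. Of 11 genes, 8 passed as higher averaged over injections, with a median change of 0.29 and a largest change of 0.57, and Acads, Echs1 and Acaa2 did not pass. The acyl-CoA dehydrogenases start each cycle and differ by chain length. Acadl, for long chains, was at 12.21, 12.21 and 12.10 in Adeno-Cre fasted livers, against 11.79, 11.90 and 11.87 in Adeno-Cre fed livers. After Adeno-GFP, Acadl was at 12.15, 12.27 and 12.16 in Adeno-GFP fasted livers, against 11.87, 11.87 and 11.90 in Adeno-GFP fed livers. The fasted arrays were all higher, and the averaged change was 0.32 ± 0.05 (limma adjusted p = 0.00208).

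Acadm, for medium chains, was at 12.16, 12.21 and 12.04 in Adeno-Cre fasted livers, against 11.77, 11.78 and 11.79 in Adeno-Cre fed livers. After Adeno-GFP, Acadm was at 12.16, 12.17 and 12.10 in Adeno-GFP fasted livers, against 11.61, 11.70 and 11.51 in Adeno-GFP fed livers. Its diets were apart after both injections, by 0.35 after Adeno-Cre (0.0275) and 0.53 after Adeno-GFP (0.00338). Acadvl, for very long chains, rose by 0.29 averaged over injections (0.00293). Acads, for short chains, had a change of 0.05 (0.715), with a 95% interval of -0.08 to 0.18.

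The trifunctional protein completes the cycle for long chains, and both of its subunits rose. Hadha, the subunit with the hydratase and dehydrogenase activities, was at 12.02, 12.15 and 11.97 in Adeno-Cre fasted livers, against 11.69, 11.66 and 11.72 in Adeno-Cre fed livers. After Adeno-GFP, Hadha was at 11.98, 12.03 and 11.89 in Adeno-GFP fasted livers, against 11.65, 11.61 and 11.60 in Adeno-GFP fed livers. The groups did not overlap between diets, and the averaged change was 0.35 ± 0.05 (limma adjusted p = 0.00142). Hadhb, the thiolase subunit, had the largest averaged rise of these 11 genes, at 0.57 (0.00118). The enzymes for shorter chains gave smaller values: Hadh, the dehydrogenase, rose by 0.20 (0.0256), Echs1, the hydratase, had a change of 0.08 (0.437) and Acaa2, the thiolase, had a change of 0.03 (0.769). Eci1 and Decr1, which prepare unsaturated chains, rose by 0.50 (0.00139) and 0.29 (0.0344).

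Electrons of the dehydrogenases pass through the electron transfer flavoprotein to ubiquinone. Its beta subunit gene Etfb rose by 0.33 averaged over injections (limma adjusted p = 0.00484) and Etfdh, the ubiquinone oxidoreductase, by 0.29 (0.00806). Etfa, the alpha subunit, had a change of 0.06 (0.526), with a 95% interval of -0.04 to 0.17.

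Of 8 genes of peroxisomal oxidation, 6 rose averaged over injections, with a median change of 0.37. Of 18 genes of mitochondrial oxidation (shuttle, beta-oxidation and flavoprotein together), 14 rose, with a median of 0.32. The medians lay closer to each other than the genes of either class, which ran from -0.10 to 1.17 and from 0.03 to 0.57. The shares depend on how genes are classed. By compartment, 5 of 9 genes found only in peroxisomes rose, against 15 of 21 found only in mitochondria. That count leaves out Eci2 and Crat, of both organelles, and takes in thioesterases, the ketogenic genes and Pdk4. Within injections, 2 of the 8 peroxisomal and 9 of the 18 mitochondrial genes rose after Adeno-Cre, and 5 and 9 after Adeno-GFP. Besides Ehhadh, the rises were Acaa1a, a thiolase (0.41, 0.0112), Decr2, a dienoyl-CoA reductase (0.37, 0.000964), Eci2, an enoyl-CoA isomerase (0.36, 0.00366), and Crot, which makes medium-chain acylcarnitine for export to mitochondria (0.34, 0.00389). The other was Pex11a, a membrane protein of peroxisome division, which was at 10.35, 10.75 and 10.10 in Adeno-Cre fasted livers, against 9.997, 9.76 and 9.97 in Adeno-Cre fed livers. After Adeno-GFP, Pex11a was at 9.95, 10.32 and 10.13 in Adeno-GFP fasted livers, against 9.90, 9.96 and 9.70 in Adeno-GFP fed livers. The diets were apart after Adeno-Cre and overlapped after Adeno-GFP, and the averaged change was 0.39 ± 0.11 (limma adjusted p = 0.0444).

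A pair of the peroxisomal oxidation genes did not pass. Hsd17b4, the bifunctional enzyme for branched chains and bile acid precursors, had a change of 0.20 (0.0506), just outside the threshold, although all 6 fasted arrays lay above all 6 fed arrays. It passed without dim genes (0.0166), after a further quantile normalisation (0.0359) and with a trended and robust prior (0.00597). Acaa1b, the second thiolase, was at 8.70, 8.90 and 8.03 in Adeno-Cre fasted livers, against 8.71, 8.68 and 8.55 in Adeno-Cre fed livers. After Adeno-GFP, Acaa1b was at 8.51, 9.03 and 8.36 in Adeno-GFP fasted livers, against 8.88, 8.63 and 8.68 in Adeno-GFP fed livers. The fasted arrays were spread on both sides of the fed arrays, and the averaged change was -0.10 with a 95% interval of -0.42 to 0.22 (0.762). Acaa1a and Acaa1b are close copies, as are the Acot genes below, and whether their probe sets tell the copies apart was not tested.

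The acyl-CoA thioesterases of this family sit in different places of the cell in the mouse, and 2 of 4 rose. Acot2, the mitochondrial enzyme, was at 7.70, 7.995 and 7.64 in Adeno-Cre fasted livers, against 7.09, 7.02 and 7.08 in Adeno-Cre fed livers. After Adeno-GFP, Acot2 was at 7.38, 7.43 and 7.29 in Adeno-GFP fasted livers, against 6.56, 6.61 and 6.89 in Adeno-GFP fed livers. Fasted arrays were above fed arrays in each injection, and the Adeno-Cre arrays were above the Adeno-GFP arrays of the same diet. The averaged fasting change was 0.70 ± 0.08 (limma adjusted p = 0.00023).

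Acot3, a peroxisomal enzyme, was at 8.03, 8.20 and 7.34 in Adeno-Cre fasted livers, against 7.59, 6.50 and 6.74 in Adeno-Cre fed livers. After Adeno-GFP, Acot3 was at 6.39, 7.89 and 7.72 in Adeno-GFP fasted livers, against 7.19, 7.34 and 6.94 in Adeno-GFP fed livers. It had the largest standard error of the 39 genes, with Adeno-GFP fasted replicate 1 the lowest of all 12 arrays, and its averaged change of 0.54 did not pass (0.261). Without that array the averaged change was 0.78 and passed (limma adjusted p = 0.0442).

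Acot4, also peroxisomal, was at 8.34, 8.83 and 8.12 in Adeno-Cre fasted livers, against 8.17, 8.02 and 7.98 in Adeno-Cre fed livers. After Adeno-GFP, Acot4 was at 8.08, 8.74 and 8.47 in Adeno-GFP fasted livers, against 8.22, 8.38 and 8.27 in Adeno-GFP fed livers. Its diets overlapped, and the averaged change of 0.26 did not pass (0.261).

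Neither ketogenic gene passed as fitted here, with a median change of 0.15 averaged over injections. Acat1, the mitochondrial thiolase that makes acetoacetyl-CoA, was at 11.85, 12.04 and 11.89 in Adeno-Cre fasted livers, against 11.80, 11.79 and 11.79 in Adeno-Cre fed livers. After Adeno-GFP, Acat1 was at 12.02, 11.86 and 11.90 in Adeno-GFP fasted livers, against 11.69, 11.76 and 11.70 in Adeno-GFP fed livers. All 6 fasted arrays were above all 6 fed arrays by a small margin, and the averaged change was 0.17 (limma adjusted p = 0.0642, 95% interval 0.06 to 0.29). Acat1 passed without dim genes (0.0206) and with a trended and robust prior (0.00882), and with that prior also after Adeno-GFP alone (0.0352).

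Bdh1 interconverts acetoacetate and beta-hydroxybutyrate, and it was at 9.13, 9.28 and 8.97 in Adeno-Cre fasted livers, against 8.86, 9.09 and 8.78 in Adeno-Cre fed livers. After Adeno-GFP, Bdh1 was at 9.17, 9.26 and 8.96 in Adeno-GFP fasted livers, against 9.09, 9.14 and 8.99 in Adeno-GFP fed livers. The diets overlapped after both injections, and the averaged change was 0.13 (limma adjusted p = 0.367, 95% interval -0.04 to 0.30).

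**Figure D2:**
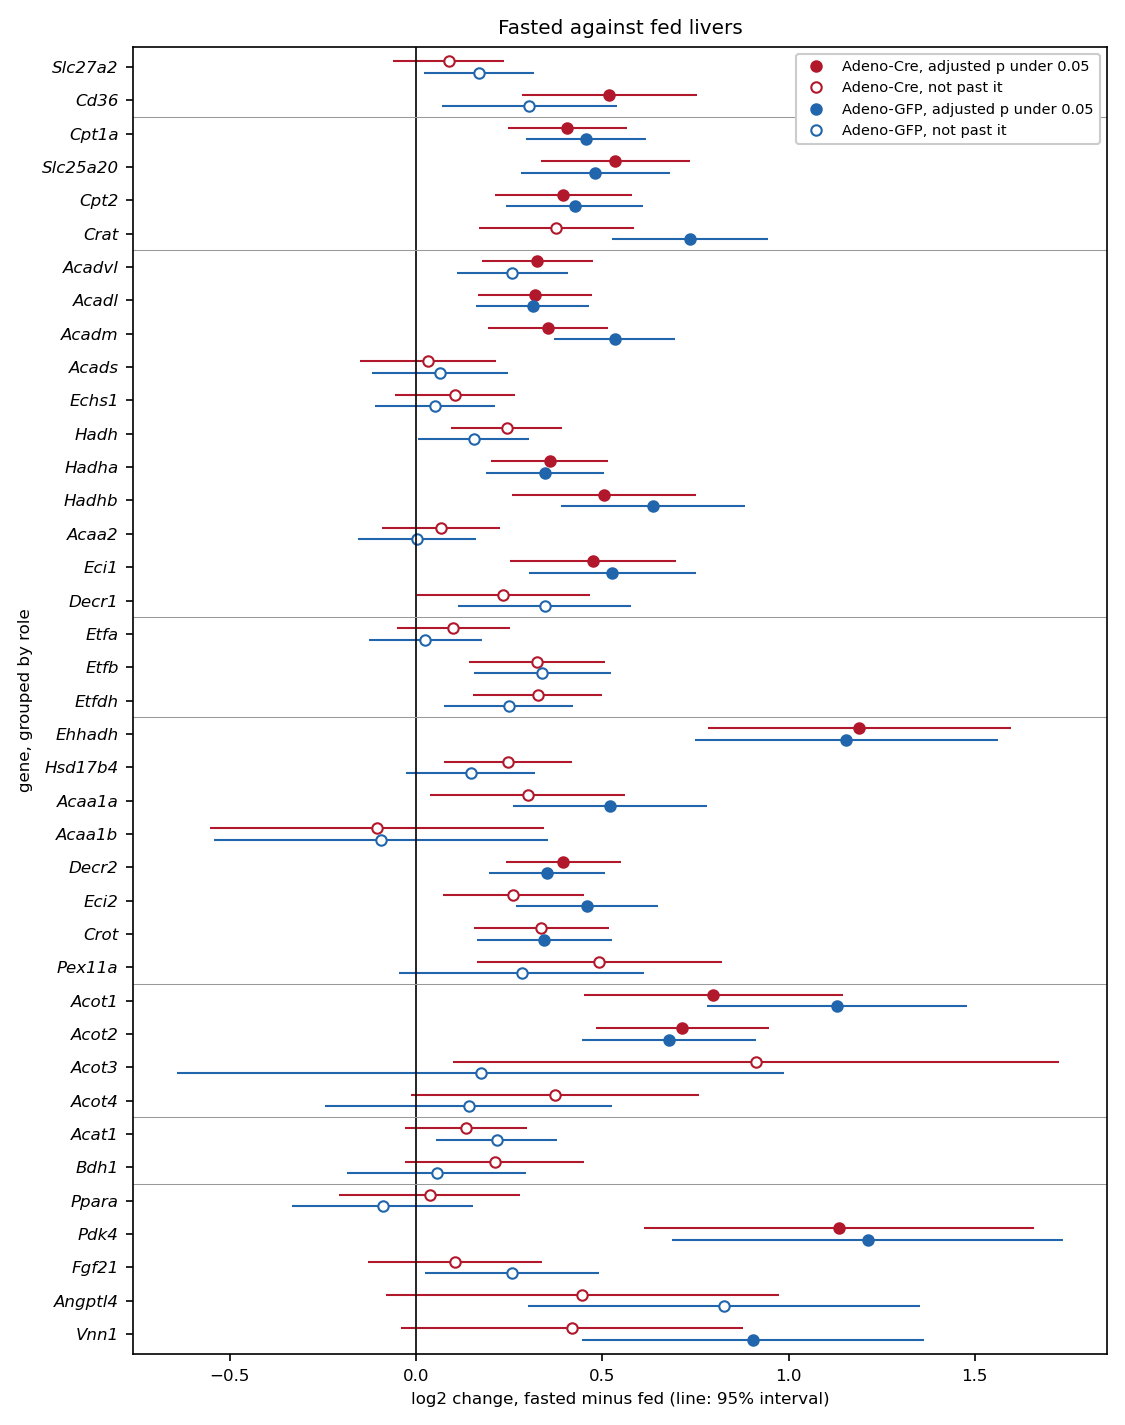
Change with fasting (fasted minus fed, log2) of each of the 39 genes after Adeno-Cre (above) and Adeno-GFP (below), with 95% intervals; filled points passed the limma test at an adjusted p under 0.05. Points lie right of 0 for 38 genes after Adeno-Cre and 37 after Adeno-GFP, with Ehhadh and Pdk4 farthest out at 1.14 to 1.21 after each injection, and the points of the ketogenic genes Acat1 and Bdh1, at 0.06 to 0.22, are open.

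Ppara, the receptor itself, did not pass in any comparison of diets or injections as fitted here. It was at 9.10, 9.13 and 8.72 in Adeno-Cre fasted livers, against 9.02, 8.98 and 8.84 in Adeno-Cre fed livers. After Adeno-GFP, Ppara was at 9.14, 9.32 and 9.06 in Adeno-GFP fasted livers, against 9.22, 9.30 and 9.28 in Adeno-GFP fed livers. The diets overlapped, and the averaged change was -0.03 with a 95% interval of -0.20 to 0.14 (limma adjusted p = 0.897).

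Fgf21, a hormone that the fasted liver releases under the control of PPARA, was at 6.51, 6.89 and 6.59 in Adeno-Cre fasted livers, against 6.50, 6.44 and 6.74 in Adeno-Cre fed livers. After Adeno-GFP, Fgf21 was at 6.80, 6.81 and 6.81 in Adeno-GFP fasted livers, against 6.57, 6.46 and 6.61 in Adeno-GFP fed livers. These levels are near the array medians and are not shown to be above background. The 3 Adeno-GFP fasted arrays were above their fed arrays, the Adeno-Cre diets overlapped, and the averaged change of 0.18 did not pass (0.18).

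Angptl4, a secreted inhibitor of lipoprotein lipase, was at 10.11, 10.13 and 9.67 in Adeno-Cre fasted livers, against 9.72, 10.01 and 8.83 in Adeno-Cre fed livers. After Adeno-GFP, Angptl4 was at 10.14, 10.25 and 10.10 in Adeno-GFP fasted livers, against 9.09, 9.54 and 9.38 in Adeno-GFP fed livers. The Adeno-Cre diets overlapped, with fed replicate 3 far below the others, and the averaged change was 0.64 ± 0.17 (limma adjusted p = 0.0399). Angptl4 passed in neither injection alone as fitted here. Its change after Adeno-GFP, 0.83, passed in a fit of only the groups compared (0.0209) and without Adeno-Cre fed replicate 3 (0.0149). The averaged call was lost without any of 9 single arrays.

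Vnn1, a pantetheinase that releases the vitamin part of coenzyme A, was at 9.52, 9.43 and 9.001 in Adeno-Cre fasted livers, against 8.77, 8.89 and 9.04 in Adeno-Cre fed livers. After Adeno-GFP, Vnn1 was at 9.10, 10.10 and 9.38 in Adeno-GFP fasted livers, against 8.47, 8.70 and 8.69 in Adeno-GFP fed livers. The Adeno-GFP diets were apart and the Adeno-Cre diets overlapped, and the averaged change was 0.66 ± 0.15 (limma adjusted p = 0.0177). The change was 0.42 after Adeno-Cre (0.365) and 0.91 after Adeno-GFP (0.0391), and the difference between them was -0.49 (0.744).

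**Figure D3:**
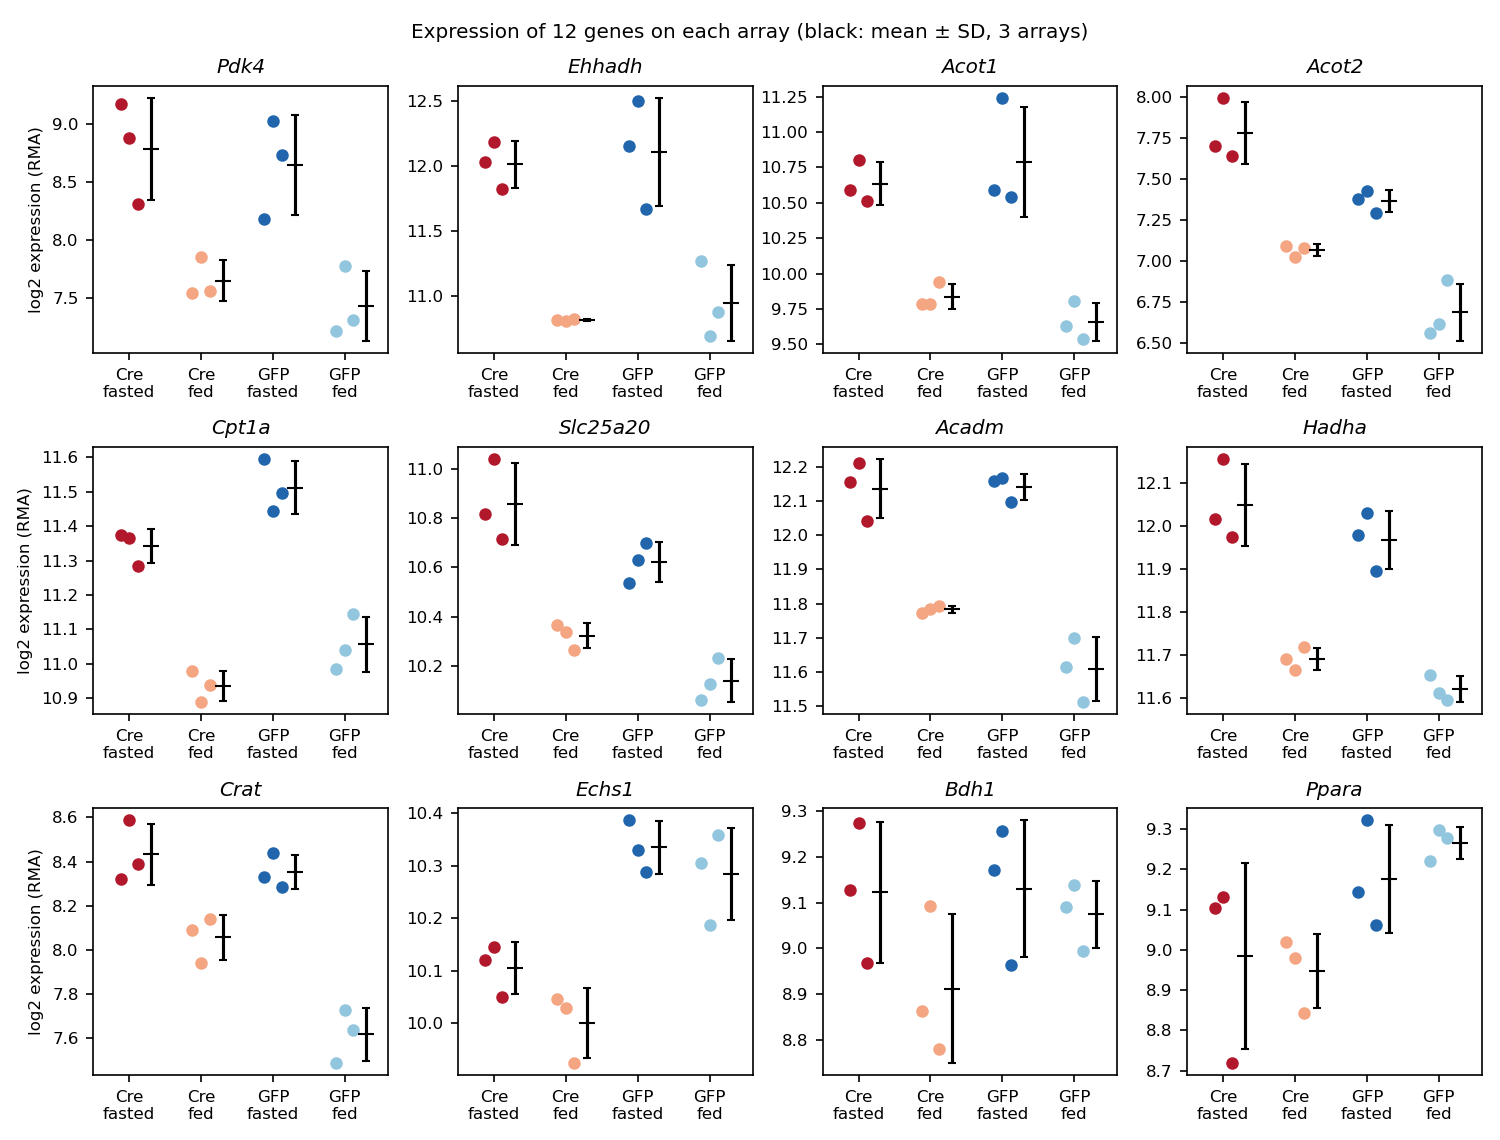
Log2 expression of 12 genes on each array, by group (points are arrays, black marks are the mean and SD of 3 arrays; each panel has its own axis, which does not start at 0). In the first 9 panels the fasted points stand above the fed points of the same injection, while in Echs1 the Adeno-Cre points stand below the Adeno-GFP points and in Bdh1 and Ppara the diets overlap.

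The fasting changes after the 2 injections come from different arrays and can be set side by side. Their tests are not independent, because the fit pooled each gene's variance over the arrays of all groups. The call of Hadhb after Adeno-Cre was lost without Adeno-GFP fasted replicate 1 (limma adjusted p = 0.0508) or replicate 3 (0.0521). The call of Crot after Adeno-GFP was lost without any single Adeno-Cre array. The overlap of calls below is therefore a description. Of the 15 genes that rose after Adeno-Cre and the 18 after Adeno-GFP, 13 were common, which is 86.7% of the Adeno-Cre list and 72.2% of the Adeno-GFP list. How many of all genes called after each injection were common was not counted, so these percentages have no background beside them. Acadvl and Cd36 passed after Adeno-Cre alone, and Acaa1a, Crat, Crot, Eci2 and Vnn1 after Adeno-GFP alone. The sign of the change was the same for 38 of 39 genes (97.4%), against 60.6% of all genes. The change was larger after Adeno-Cre for 19 of the 39. Whether fasting acted differently after the injections was tested as the interaction of injection and diet. No gene of the group passed it, 1 reached an unadjusted p under 0.05, and 0.00451% of all genes passed in limma (1 gene, with 1676 at an unadjusted p under 0.05). The gene of the group with an unadjusted p under 0.05 was Crat, at -0.36 with a 95% interval of -0.65 to -0.07 (adjusted p = 0.62). The 95% intervals of 27 of 39 genes stayed within 0.5 of 0 and the widest, that of Acot3, ran from -0.41 to 1.89.

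The comparison of injections asks what loss of p53, together with the change of viral cargo, did to these genes at a given diet. It uses the same arrays as the fasting comparisons. In fasted livers 0 of 39 genes passed in limma, 7 had an unadjusted p under 0.05, and 2.75% of all genes passed (2.26% higher, 0.482% lower; 3711 at an unadjusted p under 0.05). Their median change was -0.02, against -0.03 for all genes, and changes ran from -0.30 for Acaa1a to 0.52 for Acot3. In fed livers 1 gene passed, Crat at 0.44 with a 95% interval of 0.23 to 0.65 (limma adjusted p = 0.0438), where 1.49% of all genes passed (1.08% higher, 0.415% lower) and 9 of the 39 had an unadjusted p under 0.05, as had 2742 of all genes. The median change in fed livers was 0.00. The 95% intervals lay within 0.5 of 0 for 28 genes in fasted and 27 in fed livers. All Adeno-Cre arrays lay above the Adeno-GFP arrays for 9 genes and below them for 9 in fed livers, against 8.4% and 11.5% of all genes, and for 3 and 3 in fasted livers, against 9.96% and 10.9%. The sign of the injection change was the same in both diets for 24 of 39 genes (61.5%), close to the 60.8% of all genes.

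The call of Crat in fed livers rests on 1 of its 2 probe sets. The second probe set gave a change of 0.10 in fed livers (adjusted p = 0.867) and 0.08 averaged over diets (0.712), while the fasting change averaged over injections was 0.53 on it (0.0086), near the 0.56 of the brighter one. The call was also lost without any of 8 single arrays, with adjusted p up to 0.171.

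Averaged over diets, 4 of 39 genes passed between the injections, where 5.59% of all genes did (3.55% higher, 2.03% lower). Acot2 was higher after Adeno-Cre by 0.40 (limma adjusted p = 0.00879), with 0.41 in fasted and 0.38 in fed livers. The levels of Acot2 in Adeno-GFP fed livers, 6.56 to 6.89, are near the array medians and are not shown to be above background. Crat was higher by 0.26 on its brighter probe set (0.0438), a call lost with the mean of both probe sets (0.216). Echs1, the mitochondrial enoyl-CoA hydratase, had log2 levels of 10.12, 10.15 and 10.05 in Adeno-Cre fasted livers, against 10.05, 10.03 and 9.93 in Adeno-Cre fed livers. After Adeno-GFP, Echs1 was at 10.39, 10.33 and 10.29 in Adeno-GFP fasted livers, against 10.30, 10.19 and 10.36 in Adeno-GFP fed livers. All 6 Adeno-Cre arrays lay below all 6 Adeno-GFP arrays, and the change was -0.26 ± 0.05 (0.0129). Of the 39 genes, 0 lay above and 1, Echs1, below on all arrays in this way. Among all genes, 2.11% lay above and 0.96% below.

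Decr2, the peroxisomal dienoyl-CoA reductase, was at 11.26, 11.30 and 11.21 in Adeno-Cre fasted livers, against 10.85, 10.97 and 10.78 in Adeno-Cre fed livers. After Adeno-GFP, Decr2 was at 11.48, 11.46 and 11.38 in Adeno-GFP fasted livers, against 11.09, 11.10 and 11.08 in Adeno-GFP fed livers. Within each diet its Adeno-Cre arrays lay below the Adeno-GFP arrays, and the averaged injection change was -0.20 ± 0.05 (limma adjusted p = 0.0394). Acot2 and Echs1 passed without each array in turn, and Echs1 was lost without both fasted replicates 2 (0.0534), which left Acot2 alone. Crat was lost without any of 9 arrays (up to 0.106) and Decr2 without any of 10 (up to 0.0974). Ppara was lower after Adeno-Cre by a change of -0.25 that did not pass (0.0892), and its fed change was -0.32 (0.232). The averaged change of Ppara passed without dim genes (0.0403), after a further quantile normalisation (0.0423) and with a trended and robust prior (0.0436). Beside these values, Lyz2 of the macrophage list was lower after Adeno-Cre averaged over diets (-0.54, 0.0111), as were Ecm1 and Reln of the stellate list and Krt7 of the bile duct list, and Gzma of the lymphocyte list was higher (0.68, 0.00155). No other marker of these lists passed in that comparison. The lists' median changes were -0.22, -0.20, -0.105 and -0.02, in that order. The levels of Gzma in Adeno-GFP livers, 5.45 to 6.09, are under the array medians and are not shown to be above background. The part of those cells in the 4 calls was not tested.

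**Figure D4:**
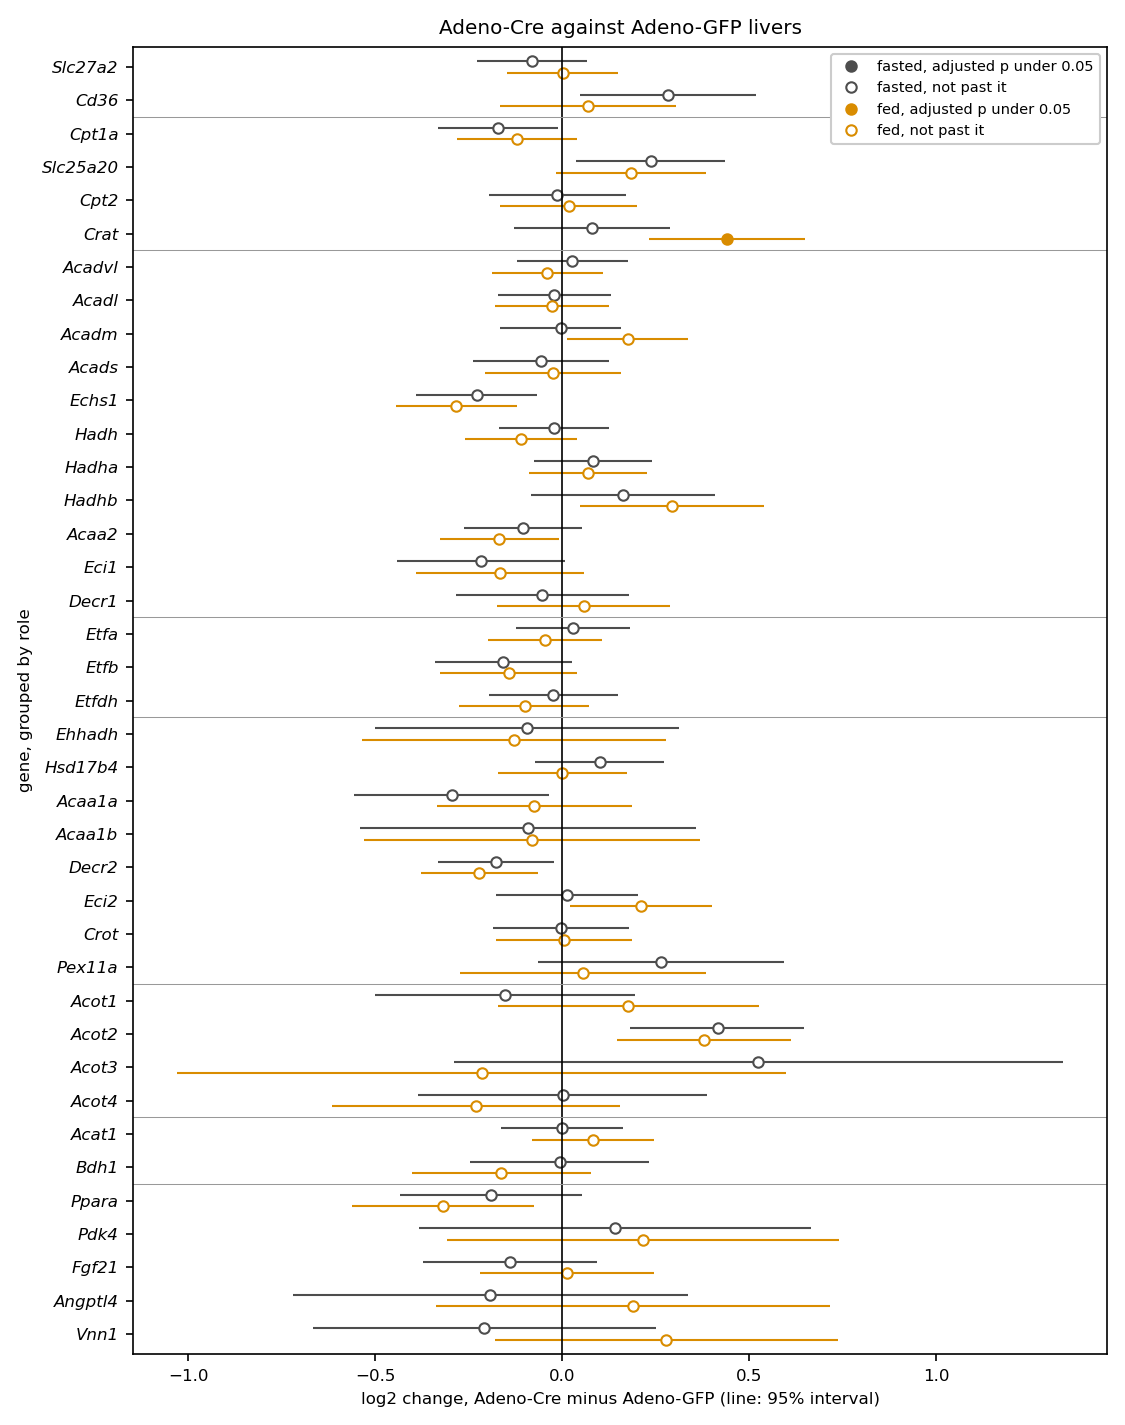
Change with injection (Adeno-Cre minus Adeno-GFP, log2) of each of the 39 genes in fasted livers (above) and fed livers (below), with 95% intervals; filled points passed the limma test at an adjusted p under 0.05. Points lie on both sides of 0, Crat in fed livers is the only filled one, and the intervals of Acot3 are the widest.

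Genes of the same routes outside the group were counted on 3 further lists. With fasting averaged over injections, 4.02% of all genes were higher and 4.32% lower past the threshold. Of 26 measured genes of mitochondrial oxidation, ketone metabolism and their control, 4 rose and 5 fell in that comparison, with a median of 0.04. Acaca, counted among the falls, is not itself an enzyme of oxidation. The largest were Bdh2 (-0.83, adjusted p = 1.84e-05), a cytosolic dehydrogenase, Acaca (-0.79, 0.00103), which makes the malonyl-CoA that blocks CPT1, and the carnitine importer Slc22a5 (0.78, 0.00128). They were followed by Hsd17b10 (0.77, 0.000145), a short-chain dehydrogenase of the mitochondrion, Acsm1 (-0.52, 0.00154), a medium-chain acyl-CoA synthetase, and Acad11 (0.39, 0.00189), an acyl-CoA dehydrogenase. Between injections, Bdh2 was lower after Adeno-Cre in fed livers (-0.51, 0.0192) and averaged over diets (-0.37, 0.00479). Acsm1 (-0.36, 0.0178) and Acadsb (-0.20, 0.0497) fell and the monocarboxylate carrier Slc16a1 rose (0.24, 0.0494) after Adeno-Cre averaged over diets.

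Of 36 further peroxisomal genes, 9 rose and 4 fell with fasting averaged over injections. The largest were Nudt7 (-1.12, adjusted p = 7.55e-05), a coenzyme A diphosphatase, and Hao1 (-0.72, 0.00115), which oxidises glycolate. Ech1 (0.60, 5.81e-05), a dienoyl-CoA isomerase, Acox2 (0.57, 0.000459), an oxidase of branched chains, Ephx2 (0.47, 0.000186), an epoxide hydrolase, and the membrane protein Pxmp2 (0.43, 0.00137) rose. Acot6, a thioesterase, was higher after Adeno-Cre in fasted livers (0.52, 0.0355), at levels near the array medians that are not shown to be above background. Baat, which conjugates bile acids, and Pxmp2 were both lower after Adeno-Cre averaged over diets (-0.28 each, 0.0155 and 0.0213).

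Of 43 further PPARA targets and partners, 15 rose and 2 fell with fasting averaged over injections, with a median of 0.13. Cyp4a14 (1.92, adjusted p = 1.56e-06) and Cyp4a31 (1.78, 7.45e-05), fatty acid hydroxylases, rose more than any of the 39 genes. Retsat (1.16, 1.56e-06), a retinol saturase, Cidec (1.04, 0.00389), a lipid droplet protein, G0s2 (0.79, 0.0384), an inhibitor of adipose triglyceride lipase, and Ppargc1a (0.79, 0.00188), a coactivator of PPARA, rose as well. Slc27a5, a bile acid and very long-chain acyl-CoA synthetase, was lower after Adeno-Cre averaged over diets (-0.43, 0.00588).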

How the data were processed

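RMA was used by the authors, per the submitters' processing notes, and the deposited value of each probe set is a level in log2. Total RNA of 200 ng with an integrity number above 7 was used, per the labels' protocols. The sources used here name no software version and no genome build. RMA equalises the arrays and compresses changes of dim and very bright probe sets, and no detection call can be made from its values, which ran from 1.62 to 13.96.

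Of 41345 probe sets, the platform annotation names 1 gene for 23521 and several for 1814, and 16010 are not listed there and are unnamed here. RefSeq gene identifiers matched for 23328. For each gene the brightest probe set by mean over 12 arrays was used, which left 22180 genes, 1082 of them with several probe sets, 3 in the group described. Groups come from the labels. A single limma model (version 3.58.1, in R 4.3.3) held all arrays, with group means and eBayes, and 7 contrasts were tested, each with its own Benjamini and Hochberg adjustment. The fit was tested on simulated data. Tables and figures used Python 3.11.15, pandas 2.3.3, numpy 2.4.6 and matplotlib 3.10.9.

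The genes, the lists and the tests were chosen with earlier results of these data known. Values on every array are given for a set of 21 chosen genes, for every gene past the threshold between injections and for the 6 largest averaged fasting changes. For each further list, up to 6 genes with the largest changes are named. The alternatives re-scaled the arrays, left out dim genes, averaged or tested all probe sets, changed the variance prior, fitted only the groups compared, added the replicate number as a block, and left out each array.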

Additional observations from a re-analysis of the deposited data

Results flagged for a closer look

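Some probe sets lie outside the comparisons above. The second probe set of Crat gave a fasting change of 0.53 averaged over injections (fasted minus fed, adjusted p = 0.0086), a rise like that of the probe set used. The second probe set of Slc27a2 gave a change of 0.38 (adjusted p = 0.0219), where the brighter one, near the top of the array's range, gave 0.13 (0.136). A probe set shared by Acot8, a peroxisomal thioesterase of the list, and Snx21 gave 0.58 (adjusted p = 0.00362), and which of the 2 genes it reads was not tested.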

How the results depend on the processing

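No change of a gene reversed its sign where it passed, and the median change of the 39 genes stayed within the spread between arrays under all alternatives run. Of 5616 values of single genes recomputed, 267 lost and 56 gained a call. Most of the 5616 had no call at the outset, so the share of calls lost is higher than these numbers give. Without some single array, 12 of 15 fasting calls after Adeno-Cre, 11 of 18 after Adeno-GFP and 4 of 26 averaged were lost. Testing all probe sets left 5 genes for fasting after Adeno-Cre, 9 after Adeno-GFP, 0 between injections in fed livers and 2 averaged over diets. Fitting only the groups compared left 3 for fasting after Adeno-Cre and 0 between injections in fed livers. Leaving out dim genes gave 20 for fasting after Adeno-Cre, 21 after Adeno-GFP and 29 averaged, and 1 between injections in fasted and 2 in fed livers. A trended and robust prior gave 21, 24 and 28 for the same fasting comparisons, and between injections 2 in fasted livers, 3 in fed livers and 8 averaged over diets. Centring the arrays, averaging probe sets and the replicate block each gave 0 between injections in fed livers. Without both fasted replicates 2, a choice made after seeing the data, the counts were 3 for fasting after Adeno-Cre, 8 after Adeno-GFP and 1 (Acot2) between injections averaged over diets. The cause was not tested in any of these.

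Leaving out each array gave 3 to 17 genes for fasting after Adeno-Cre (medians 0.30 to 0.39), 8 to 17 after Adeno-GFP (0.29 to 0.35) and 22 to 27 averaged (0.33 to 0.37). It gave 0 to 1 between injections in fasted livers (-0.08 to 0.03), 0 to 1 in fed livers (-0.03 to 0.02), 2 to 4 averaged over diets (-0.04 to 0.01) and 0 for the interaction (-0.05 to 0.05). Averaged over injections, Hadh was lost without any of 7 arrays (adjusted p up to 0.0608), Decr1 of 8 (0.0843), Pex11a of 10 (0.0975) and Angptl4 of 9 (0.0913). Same-numbered arrays of different groups correlated at -0.09 to 0.15 in their deviations over all genes, and 2 of 18 pairs were over 0.1. Differently numbered arrays correlated at -0.18 to 0.13, with 2 of 36 pairs over 0.1. Such weak values cannot show whether the numbers pair the samples, and the labels do not say. With the replicate block, 14 genes passed for fasting after Adeno-Cre, 15 after Adeno-GFP, 26 averaged, and 3 between injections averaged over diets. Signal over background is not given, so levels near the array medians have no known precision. Those of Fgf21, of Acot6 and of Acot2 in Adeno-GFP fed livers are examples.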
